A study of Homo sapiens with 30 samples.

Results

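A day in culture without drug was examined in A375 cells, an established human melanoma line with an activating BRAF mutation. The arrays described here are the 3 of vehicle cultures at 24 h and the 3 of vehicle cultures at 1 h, chosen by treatment and time from the sample titles. They are 6 of the 30 Affymetrix HG-U133 Plus 2.0 arrays of the series and 2 of its 10 groups. The vehicle was 0.065% DMSO. The other 8 groups, also of 3 arrays, held DMSO at 2, 4 and 8 h and 650 nM MLN4924 at 1, 2, 4, 8 and 24 h. MLN4924 (pevonedistat) inhibits the NEDD8-activating enzyme, and the vehicle arrays served as its controls. All cultures grew in DMEM with fetal bovine serum. The labels number the replicates but do not say that they were separate cultures, so p-values measure the spread between replicate arrays, which may be technical.

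Cultured tumour cells use up nutrients and growth factors as they become denser. Transcripts known to respond include those of the cell cycle and of the growth-promoting co-activator YAP, which cell contact holds back. Transcripts of FOXO factors, which act when growth factor signals are low, are known to move the other way. Those of amino acid supply through the transcription factor ATF4 are a further group known to respond. No direction is assumed for them here. Time after vehicle addition, cell density, age of the medium and harvest cannot be told apart in this design. Each array measured a whole culture, so fewer cells of a kind and less RNA per cell cannot be told apart either.

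Values are quantile-normalized probe set signals on a linear scale, with 1 probe set per gene. Changes are DMSO 24 h minus DMSO 1 h on the log2(signal + 32) scale, which understates the change of dim genes. Tests are from limma over 19775 genes, two-sided, and a gene was called higher or lower at a Benjamini-Hochberg adjusted p under 0.05. Their spread was estimated from all 30 arrays, so these p-values do not rest on the 6 arrays alone. The 24 h arrays correlated with each other at 0.9871 to 0.9886, the 1 h arrays at 0.9862 to 0.9875, and the groups with each other at 0.9769 to 0.9811. The ratio of 3′ to 5′ signal of ACTB averaged 1.288 at 24 h and 1.284 at 1 h (exact permutation p = 0.9), and that of GAPDH 0.879 and 0.916 (p = 0.3). With 3 arrays against 3 that test cannot give a p under 0.1.

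The labelled cell type was checked against melanocyte lineage genes. SOX10, a neural crest transcription factor, averaged 873 ± 87.6 in DMSO 24 h and 916 ± 90.3 in DMSO 1 h (SD, n = 3 each), and MITF, the regulator of pigment cell genes, 365 ± 19.9 in DMSO 24 h and 275 ± 40.8 in DMSO 1 h. The pigment genes PMEL, MLANA and TYR were all below 67.0, the median of all values, in both group means: PMEL averaged 27.4 ± 5.8 in DMSO 24 h and 22.6 ± 6.8 in DMSO 1 h, MLANA 26.1 ± 3.9 in DMSO 24 h and 19.6 ± 5.5 in DMSO 1 h and TYR 46.0 ± 1.8 in DMSO 24 h and 41.7 ± 14.4 in DMSO 1 h. Of the fibroblast markers 6 of 9 were under that median on all 6 arrays, of the epithelial and keratinocyte markers 5 of 8, of the blood cell markers 4 of 6 and of the endothelial markers 5 of 6. Of the 8 epithelial and keratinocyte markers 2 were called lower, beside 8.49% of all genes: the keratin KRT14 and stratifin (SFN). The summed signal of all 8 was 2216.0 to 2490.4 at 24 h and 2488.0 to 2784.6 at 1 h. Without DMSO 24 h replicate 1 or 3 or DMSO 1 h replicate 2 that count was 1. None of the blood cell or endothelial markers was called by limma, with 0 and 1 at an unadjusted p under 0.05.

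In all, 3642 genes differed between DMSO 24 h and DMSO 1 h, 18.4% of those tested. Of these, 1963 were higher at 24 h (9.93%) and 1679 lower (8.49%). The median change over all genes was -0.003, and the median size of a called change was 0.43. A change of at least 2-fold was reached by 115 genes, 87 higher and 28 lower. At an unadjusted limma p under 0.05, 5509 of the 19775 genes passed in either direction. The 15 largest increases included genes of matrix, secreted and neural crest proteins, and the 15 largest decreases included YAP targets, secreted factors, an amino acid transporter and enzymes of the oxidative stress response. The arrays of the 2 groups did not overlap for 3542 called genes and overlapped for 100. Among all 19775 genes they did not overlap for 6479 (32.8%). A call favours such separation, so this is a description. Calls were unevenly spread over signal levels. With the genes ranked by mean signal in 5 bins of 3955, 1.6% of the dimmest bin were called, then 4.6%, 15.3% and 30.7%, and 39.9% of the brightest. Of the brightest bin 17.5% were called higher and 22.4% lower, against 0.9% and 0.7% of the dimmest. The shares of all genes given beside the lists are not matched for signal. Leaving out 1 array at a time gave between 2826 and 3371 called genes.

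**Figure D1:**
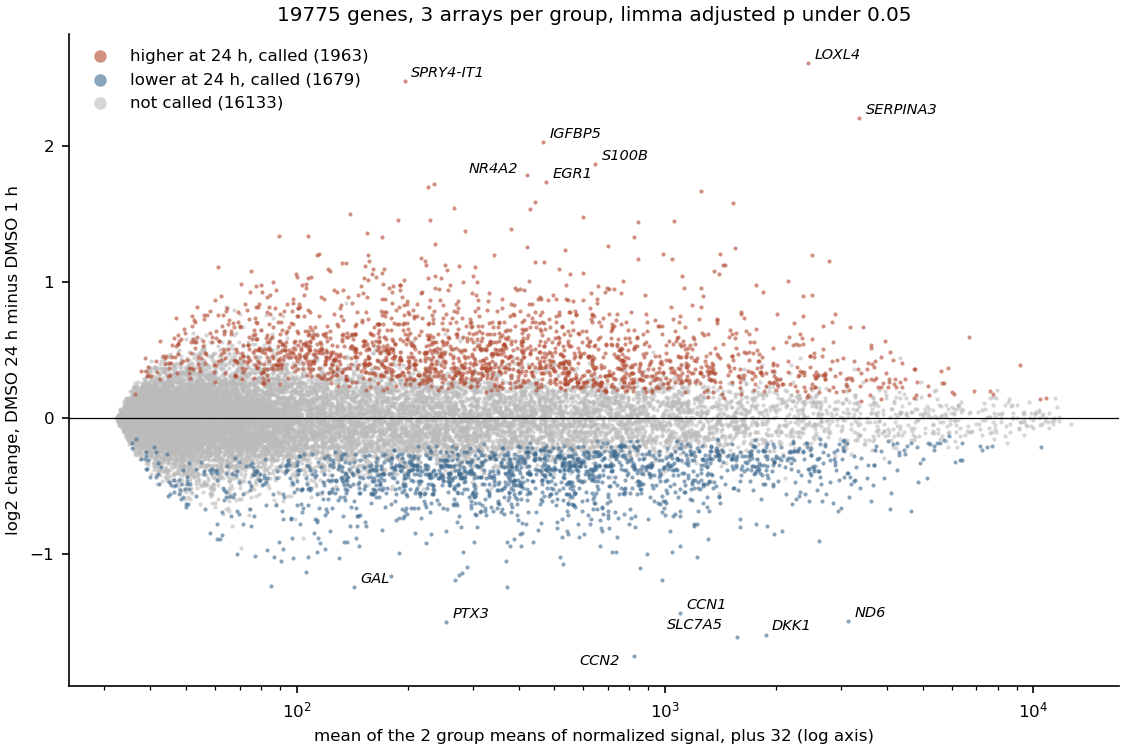
Each point is 1 of 19775 genes, with its mean signal plus 32 on a log axis and its log2 change, DMSO 24 h minus DMSO 1 h. Red points are the 1963 genes called higher and blue points the 1679 called lower; called genes are sparse on the left, where signals are low, and the 7 leading genes of each direction are named.

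Promoters of 4 genes that fell or rose are shown because each holds the letters of a motif tied to its group: TEAD, the DNA-binding partner of YAP (GGAATG), in CCN2; the amino acid response element bound by ATF4 (TGATGNAA) in CHAC1; E2F (TTTNNCGC) in CDC25A; and FOXO (GTAAACA) in HBP1. The sequences are from RefSeq (GRCh38.p14), 250 bases before to 50 after the gene's start, 5′ to 3′ on the gene's strand, with the motif on either strand in capitals. Their positions are chr6:131951323-131951622, minus strand, for CCN2, chr15:40953221-40953520, plus strand, for CHAC1, chr3:48188368-48188667, minus strand, for CDC25A, and chr7:107168753-107169052, plus strand, for HBP1.
CCN2: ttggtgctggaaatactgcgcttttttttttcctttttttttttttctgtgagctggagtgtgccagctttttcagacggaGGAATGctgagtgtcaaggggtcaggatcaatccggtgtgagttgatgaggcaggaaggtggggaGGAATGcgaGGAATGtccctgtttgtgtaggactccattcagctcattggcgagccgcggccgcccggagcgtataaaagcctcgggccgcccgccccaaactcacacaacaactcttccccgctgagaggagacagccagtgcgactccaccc
CHAC1: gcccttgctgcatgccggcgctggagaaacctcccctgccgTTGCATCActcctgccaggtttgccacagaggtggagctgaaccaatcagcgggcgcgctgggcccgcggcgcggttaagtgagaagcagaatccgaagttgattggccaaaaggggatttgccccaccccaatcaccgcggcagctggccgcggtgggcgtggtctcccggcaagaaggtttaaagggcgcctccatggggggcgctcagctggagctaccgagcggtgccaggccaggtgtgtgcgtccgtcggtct
CDC25A: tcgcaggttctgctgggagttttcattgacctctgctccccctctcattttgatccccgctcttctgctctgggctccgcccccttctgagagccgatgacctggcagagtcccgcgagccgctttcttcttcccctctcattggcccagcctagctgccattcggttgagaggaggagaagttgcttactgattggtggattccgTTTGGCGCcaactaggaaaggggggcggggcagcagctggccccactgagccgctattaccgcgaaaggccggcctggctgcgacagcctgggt
HBP1: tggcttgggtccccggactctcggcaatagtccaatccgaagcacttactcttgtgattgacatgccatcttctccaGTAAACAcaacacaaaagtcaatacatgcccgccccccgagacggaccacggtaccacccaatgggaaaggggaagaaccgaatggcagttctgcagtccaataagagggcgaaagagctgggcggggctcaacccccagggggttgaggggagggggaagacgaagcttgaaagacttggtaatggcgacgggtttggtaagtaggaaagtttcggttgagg
CCN2 holds 3 TEAD matches and each of the others 1 match of its motif. Both strands were searched. Among measured list members with a promoter in the RefSeq table, TEAD letters occurred in 6 of 18 SRF and YAP targets (33.3%), against 14.0% of all 27305 promoters. The ATF4 element occurred in 5 of 23 amino acid response genes (21.7%), against 3.7%, and the E2F letters in 19 of 34 G1/S genes (55.9%), against 6.9%. The FOXO letters occurred in 3 of 16 FOXO and quiescence genes (18.8%), against 3.4%. A further element of late cell cycle genes, CHR (TTTGAA), occurred in 21 of 32 G2/M genes (65.6%), against 15.4%. The antioxidant response element (TGACNNNGC) occurred in 5 of 21 NRF2 targets (23.8%), against 13.6%. The lists were drawn up from general knowledge, so these shares describe the lists and not the change at 24 h. Among called members the letters occurred in 4 of 11 (TEAD), 4 of 14 (ATF4 element) and 15 of 30 (E2F). For FOXO it was 3 of 11, for CHR 9 of 14 and for the antioxidant response element 2 of 10. These matches describe letters in the window and no binding was measured.

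Genes of matrix and secreted proteins were among the leading increases. The leading genes of both directions were chosen among called genes whose arrays did not overlap, so their separation is a description. LOXL4, a lysyl oxidase that cross-links collagen, had signals of 4172, 4121 and 4204 in the DMSO 24 h arrays, against 695, 617 and 656 in the DMSO 1 h arrays. The groups lay far apart, and the 24 h arrays were close to each other (log2 change 2.61, SE 0.07, adjusted p = 4.87e-18). A second LOXL4 probe set gave -0.31, so its probe sets disagree. SERPINA3, the secreted protease inhibitor antichymotrypsin, had signals of 5329, 5659 and 5521 in the DMSO 24 h arrays, against 1251, 1155 and 1089 in the DMSO 1 h arrays. All 24 h arrays were above all 1 h arrays (log2 change 2.21, SE 0.10, adjusted p = 1.52e-13). IGFBP5, a secreted binding protein of insulin-like growth factors, had signals of 668, 795 and 680.2 in the DMSO 24 h arrays, against 144, 197 and 119.5 in the DMSO 1 h arrays. Here too the groups did not overlap (log2 change 2.03, SE 0.13, adjusted p = 1e-10). Its 6 probe sets ran from 0.22 to 2.03, and their mean gave 0.64.

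Further genes of matrix, secreted and adhesion proteins rose. HAPLN1, which links hyaluronan to proteoglycans, averaged 2250.4 ± 112 in DMSO 24 h and 734 ± 71.0 in DMSO 1 h (log2 change 1.58, adjusted p = 1.94e-10), and CEMIP, which takes part in breaking hyaluronan down, 1520.5 ± 80.4 in DMSO 24 h and 534 ± 14.8 in DMSO 1 h (log2 change 1.45, adjusted p = 1.98e-09). The CEMIP call was lost without probe sets that may match several transcripts (names ending in _x_at or _s_at, change 0.01). HMCN1, a matrix protein, averaged 608 ± 60.2 in DMSO 24 h and 188 ± 29.1 in DMSO 1 h (log2 change 1.54, adjusted p = 4.06e-09). CHRDL1, an antagonist of bone morphogenetic proteins, averaged 633 ± 18.8 in DMSO 24 h and 189 ± 11.4 in DMSO 1 h (log2 change 1.59, adjusted p = 1.39e-10). CFI, a protease of the complement system, averaged 366 ± 5.8 in DMSO 24 h and 104 ± 10.6 in DMSO 1 h (log2 change 1.55, adjusted p = 7.07e-11). The integrin subunit gene ITGA9 averaged 173 ± 1.2 in DMSO 24 h and 40.6 ± 2.3 in DMSO 1 h (log2 change 1.50, adjusted p = 1.18e-08). With the mean of probe sets the changes of CEMIP and ITGA9 were 0.73 and 0.56.

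The median change of 37 measured matrix and adhesion genes was 0.15, against -0.003 over all genes. Of them 11 were called higher and 1 lower, beside 9.93% and 8.49% of all genes. Besides LOXL4, they included LAMA4, a laminin chain (log2 change 1.06, adjusted p = 3.53e-09), and the integrin subunit ITGB3 (log2 change 0.84, adjusted p = 4.58e-06). The higher count fell to 7 without DMSO 24 h replicate 2. The LAMA4 call was lost without the _x_at and _s_at probe sets, where its change was 0.34. The 1 lower gene was not called without DMSO 24 h replicate 3 or DMSO 1 h replicate 1 or 3. Beside these genes 2 of 9 fibroblast markers were called higher, the proteoglycan LUM and the receptor PDGFRA, with a summed signal of all 9 of 517.0 to 562.3 at 24 h and 414.0 to 445.0 at 1 h. LUM turned to -0.02 without the _x_at and _s_at probe sets and PDGFRA lost its call with the mean of probe sets. Their part in the result was not tested. In the TGF-beta, BMP and activin feedback list, 3 of 23 measured genes were higher and 1 lower (2 without DMSO 1 h replicate 2). INHBA, which encodes an activin subunit, averaged 3455 ± 169 in DMSO 24 h and 1485 ± 42.8 in DMSO 1 h (log2 change 1.20, adjusted p = 1.56e-09). ID2, an inhibitor of basic helix-loop-helix factors, averaged 139 ± 2.9 in DMSO 24 h and 347 ± 10.4 in DMSO 1 h (log2 change -1.15, adjusted p = 2.13e-07). In the WNT feedback list 4 of 17 were higher, among them the receptor gene FZD7 (log2 change 0.75, adjusted p = 1.2e-06), and 2 lower (1 without DMSO 1 h replicate 3).

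Neural crest genes were among the leading increases. S100B, a calcium-binding protein used as a melanoma marker, had signals of 1022, 946 and 974 in the DMSO 24 h arrays, against 281, 254 and 204 in the DMSO 1 h arrays. The 24 h signals were about 4 times the 1 h signals, with no overlap (log2 change 1.87, SE 0.15, adjusted p = 2.96e-09), and the mean of its 2 probe sets gave 0.97. TFAP2B, a transcription factor of neural crest development, had signals of 1885, 1848 and 1898 in the DMSO 24 h arrays, against 594, 551 and 556 in the DMSO 1 h arrays. Both groups were tight and well apart (log2 change 1.67, SE 0.10, adjusted p = 7.67e-11). In the melanocyte lineage list 7 of 23 measured genes were higher and 3 lower (median 0.13, range -0.48 to 1.87), beside 9.93% and 8.49% of all genes. EDNRB, the endothelin B receptor, averaged 780.2 ± 80.5 in DMSO 24 h and 353 ± 26.1 in DMSO 1 h (log2 change 1.07, adjusted p = 5.72e-09), and ERBB3, a receptor tyrosine kinase, 3610.3 ± 272 in DMSO 24 h and 2103 ± 167 in DMSO 1 h (log2 change 0.77, adjusted p = 3.84e-07, and 0.28 with the mean of probe sets). MITF was called with a log2 change of 0.38 (adjusted p = 0.0162), but not in 6 of the 18 alternatives (adjusted p from 0.0508 to 0.0926). SOX10 gave a log2 change of -0.07 (adjusted p = 0.893). The higher count of the list was 4 when only the 6 arrays were fitted, and the lower count was 1 without DMSO 1 h replicate 3.

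**Figure D2:**
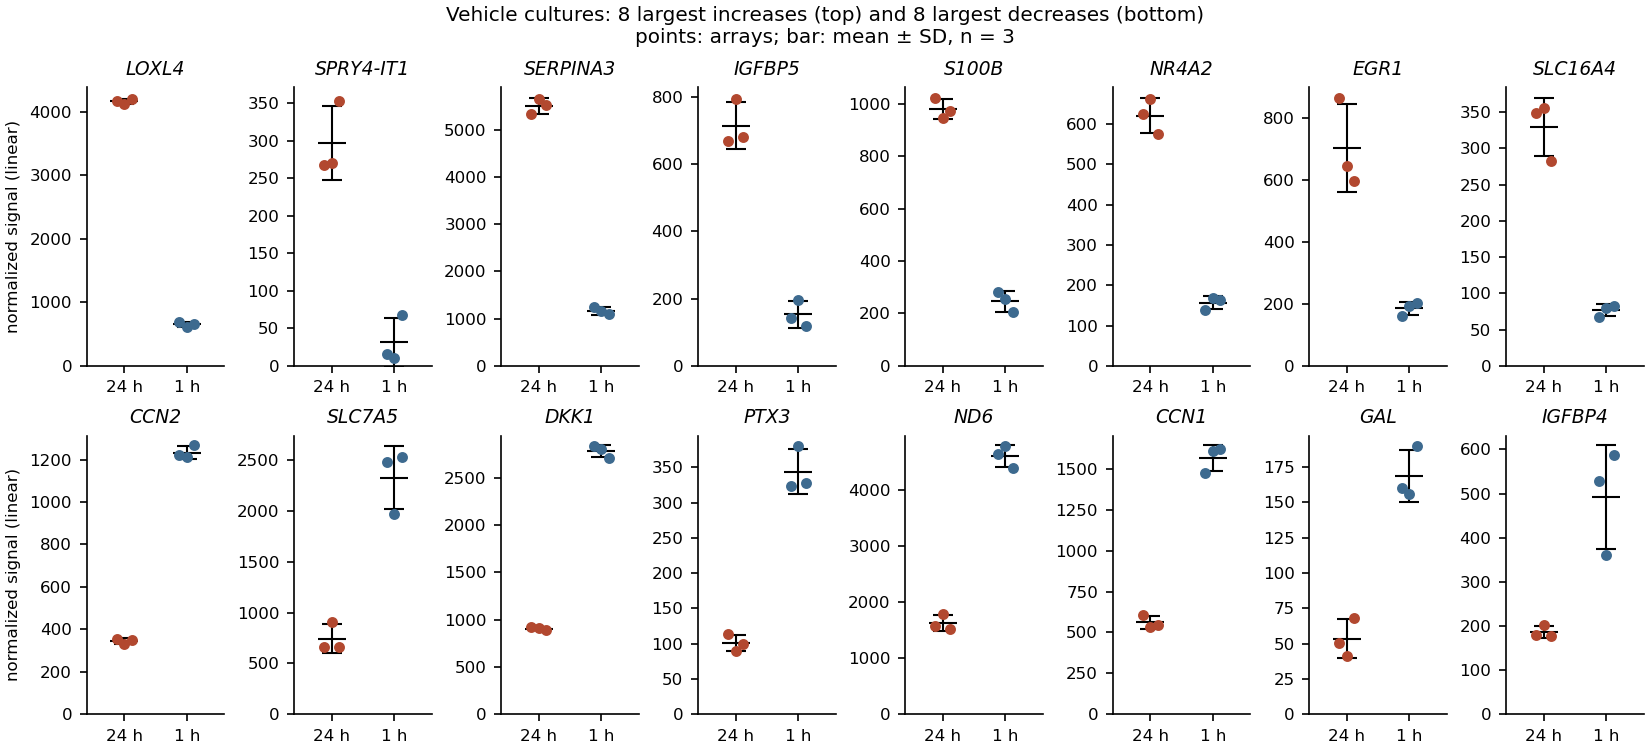
Normalized signals on linear axes that start at 0, for the 8 leading increases (top) and the 8 leading decreases (bottom); each point is 1 array, and bars give the mean ± SD (n = 3). In every panel the DMSO 24 h arrays (red) and the DMSO 1 h arrays (blue) stand apart, as the choice of genes required, LOXL4 with means of 4166 ± 42.0 in DMSO 24 h and 656 ± 39.1 in DMSO 1 h and CCN2 with means of 345 ± 12.2 in DMSO 24 h and 1233 ± 29.7 in DMSO 1 h.

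Signal-induced transcription factors moved in both directions. EGR1, an immediate early factor downstream of MAP kinase, had signals of 863, 645 and 596 in the DMSO 24 h arrays, against 162, 192 and 201 in the DMSO 1 h arrays. The groups did not overlap, and the first 24 h replicate was the highest (log2 change 1.74, SE 0.15, adjusted p = 1.07e-08). NR4A2, an orphan nuclear receptor, had signals of 626, 663 and 575 in the DMSO 24 h arrays, against 139.7, 168 and 164 in the DMSO 1 h arrays, again with no overlap (log2 change 1.79, SE 0.12, adjusted p = 2e-10). ATF3, a stress-induced factor, averaged 39.2 ± 12.5 in DMSO 24 h and 111 ± 6.9 in DMSO 1 h (log2 change -1.02, adjusted p = 2.39e-07), and its call was lost without the _x_at and _s_at probe sets (change -0.14). FOSL1, an AP-1 subunit, averaged 308 ± 16.7 in DMSO 24 h and 551 ± 64.5 in DMSO 1 h (log2 change -0.77, adjusted p = 1.4e-05). Over the immediate early list 5 of 25 measured genes were higher and 8 lower, beside 9.93% and 8.49% of all genes. Without the _x_at and _s_at probe sets 2 were higher and 3 lower.

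Feedback genes of the MAP kinase pathway, which is driven by mutant BRAF in these cells, were called mainly higher. Of 21 measured outputs 9 were higher and 3 lower (median 0.20), beside 9.93% and 8.49% of all genes. SPRY4, a Sprouty inhibitor of receptor signalling, had signals of 1135, 1211 and 1248 in the DMSO 24 h arrays, against 464, 425 and 378 in the DMSO 1 h arrays, the 24 h arrays above all others (log2 change 1.44, SE 0.11, adjusted p = 1.84e-09). SPRY4-IT1, an RNA from an intron of SPRY4, averaged 297 ± 49.1 in DMSO 24 h and 31.3 ± 32.2 in DMSO 1 h (log2 change 2.48, adjusted p = 1.3e-07). Its 1 h signals were dim and its SD there exceeded the mean. It already averaged 294.2 at 2 h (limma log2 change 2.48 against 1 h, adjusted p = 7.07e-06). It then averaged 167.5 at 4 h and 93.4 at 8 h, so it did not rise steadily over the day. The transcription factor ETV1 gave a log2 change of 0.71 (adjusted p = 2.84e-05), and the Sprouty gene SPRY2 a log2 change of 0.32 (adjusted p = 0.0022). The receptor EPHA2 was lower (log2 change -0.68, adjusted p = 8.05e-05). DUSP6, a phosphatase of ERK, was called with a log2 change of 0.36 (adjusted p = 0.0497), and 10 alternatives ended that call, with adjusted p up to 0.171.

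Targets of YAP and SRF held the largest decrease. CCN2, a matricellular protein and standard YAP target, had signals of 355, 331 and 349 in the DMSO 24 h arrays, against 1219.9, 1212 and 1267 in the DMSO 1 h arrays. Every 24 h array was below every 1 h array by a wide margin (log2 change -1.75, SE 0.10, adjusted p = 4.74e-11). CCN1, its relative, had signals of 607, 535 and 547 in the DMSO 24 h arrays, against 1475, 1608 and 1622 in the DMSO 1 h arrays, with the same separation (log2 change -1.43, SE 0.12, adjusted p = 4.99e-09). AJUBA, an adaptor at cell junctions, had signals of 323, 284 and 321 in the DMSO 24 h arrays, against 675, 678 and 702 in the DMSO 1 h arrays (log2 change -1.07, adjusted p = 2.81e-10), and its groups did not overlap. THBS1, a matrix glycoprotein, had signals of 1738, 1784 and 1843 in the DMSO 24 h arrays, against 3069, 3752 and 3275 in the DMSO 1 h arrays (log2 change -0.90, adjusted p = 3.75e-06), all lower at 24 h. Of 22 measured members 10 were lower and 2 higher (median -0.30), beside 8.49% and 9.93% of all genes. AJUBA changed by -0.59 with the mean of probe sets, and THBS1 by -1.81 without the _x_at and _s_at probe sets.

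Most amino acid response genes fell. SLC7A5, the light chain of the large neutral amino acid transporter, had signals of 665, 909 and 659.6 in the DMSO 24 h arrays, against 2488, 1971 and 2532 in the DMSO 1 h arrays. The 1 h arrays were the more scattered, and none came near the 24 h arrays (log2 change -1.61, SE 0.12, adjusted p = 7.55e-10). CHAC1, an enzyme that degrades glutathione, had signals of 16.2, 8.8 and 8.7 in the DMSO 24 h arrays, against 45.9, 46.1 and 52.3 in the DMSO 1 h arrays, near the bottom of the scale at 24 h (log2 change -0.89, SE 0.08, adjusted p = 4.45e-08). TRIB3, a pseudokinase induced by ATF4, averaged 407 ± 8.2 in DMSO 24 h and 654 ± 35.6 in DMSO 1 h (log2 change -0.64, adjusted p = 2.4e-08). ASNS, asparagine synthetase, gave a log2 change of -0.78 (adjusted p = 6.24e-09), and without the _x_at and _s_at probe sets -0.12, no longer called. Of 28 measured members 16 were lower and 1 higher (median -0.39), beside 8.49% and 9.93% of all genes. Without the _x_at and _s_at probe sets 8 were lower. The 1 higher was DDIT4, an inhibitor of mTORC1 that is also a hypoxia target, with means of 2136 ± 117 in DMSO 24 h and 888 ± 141 in DMSO 1 h (log2 change 1.25, adjusted p = 8.35e-10).

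Most genes of DNA replication fell. Of 39 measured G1/S genes 34 were lower and none was higher by limma, beside 8.49% and 9.93% of all genes. At an unadjusted p under 0.05, 0 of 39 were higher, and the median was -0.44. CDC25A, the phosphatase that activates cyclin-dependent kinases for S phase entry, had signals of 159, 146 and 154 in the DMSO 24 h arrays, against 373, 344 and 366 in the DMSO 1 h arrays. The groups were clearly apart (log2 change -1.09, SE 0.10, adjusted p = 4.46e-08), and the mean of probe sets gave -0.70. CCNE2, cyclin E2, averaged 426 ± 29.8 in DMSO 24 h and 844 ± 31.8 in DMSO 1 h (log2 change -0.94, adjusted p = 1.48e-09), and CDC6, a loader of the replicative helicase, 492 ± 2.6 in DMSO 24 h and 927 ± 18.7 in DMSO 1 h (log2 change -0.87, adjusted p = 3.47e-07). CCNE1 changed less (log2 change -0.34, adjusted p = 0.00769), and without DMSO 24 h replicate 2 its change was -0.22 with an adjusted p of 0.0857.

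Mitotic genes were lower or not called. Of 38 measured G2/M genes 18 were lower and none was higher by limma (median -0.25), beside 8.49% and 9.93% of all genes. At an unadjusted p under 0.05, 24 were lower and 0 higher, beside 5509 of all 19775 genes in either direction. CDC20, an activator of the anaphase-promoting complex, averaged 885 ± 34.4 in DMSO 24 h and 1671 ± 186 in DMSO 1 h (log2 change -0.89, adjusted p = 5.78e-08). FOXM1, a transcription factor of G2/M genes, averaged 337 ± 39.8 in DMSO 24 h and 618 ± 93.2 in DMSO 1 h (log2 change -0.81, adjusted p = 1.02e-05). MKI67, the Ki-67 proliferation antigen, had signals of 359, 379.9 and 401 in the DMSO 24 h arrays, against 686, 569 and 682 in the DMSO 1 h arrays, with no overlap (log2 change -0.71, SE 0.09, adjusted p = 1.77e-06). CCNB1, cyclin B1, changed little (log2 change -0.23, adjusted p = 0.0042) and was not called when only the 6 arrays were fitted (adjusted p = 0.054). H2AX, the histone variant phosphorylated at DNA breaks, averaged 719 ± 43.1 in DMSO 24 h and 1413 ± 119 in DMSO 1 h (log2 change -0.94, adjusted p = 6.73e-08), and 2 of 15 measured histone genes were lower (1 with any single array left out except DMSO 1 h replicate 2).

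FOXO targets and quiescence genes were called mainly higher. HBP1, a repressor of cell cycle genes, had signals of 557, 600.0 and 579 in the DMSO 24 h arrays, against 241, 251 and 239.8 in the DMSO 1 h arrays, all 24 h arrays higher (log2 change 1.15, SE 0.10, adjusted p = 1.25e-08). FBXO32, an F-box protein induced by FOXO in muscle, averaged 186 ± 2.3 in DMSO 24 h and 62.9 ± 4.8 in DMSO 1 h (log2 change 1.20, adjusted p = 8.77e-09). CDKN1B, the inhibitor p27, had signals of 1366, 1458 and 1377 in the DMSO 24 h arrays, against 923, 953 and 872 in the DMSO 1 h arrays, with no overlap (log2 change 0.60, SE 0.07, adjusted p = 1.72e-06). Sestrin 3 (SESN3) gave a log2 change of 1.04 (adjusted p = 1.7e-07) and cyclin G2 (CCNG2) a log2 change of 0.98 (adjusted p = 5.91e-07). Of 20 measured members 10 were higher and 3 lower (median 0.38, range -0.91 to 1.20), beside 9.93% and 8.49% of all genes. With the mean of probe sets HBP1 changed by 0.60, FBXO32 by 0.45, SESN3 by 0.23 and CCNG2 by 0.49, and without the _x_at and _s_at probe sets HBP1 changed by 0.28. CDKN1A, the inhibitor p21, was not called (log2 change -0.33, adjusted p = 0.0944).

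Most genes of ribosome assembly fell, while those of ribosomal proteins were not called. Of 20 measured MYC targets and ribosome biogenesis genes 15 were lower and 1 higher (median -0.34), beside 8.49% and 9.93% of all genes. The 1 higher was not called without DMSO 24 h replicate 3 or DMSO 1 h replicate 3. RRS1, a ribosome assembly factor, averaged 676 ± 113 in DMSO 24 h and 1352 ± 64.7 in DMSO 1 h (log2 change -0.98, adjusted p = 1.49e-07), PES1, of the same process, 172 ± 29.2 in DMSO 24 h and 322 ± 4.3 in DMSO 1 h (log2 change -0.80, adjusted p = 2.14e-05), and SRM, spermidine synthase, 708 ± 29.3 in DMSO 24 h and 1097 ± 82.0 in DMSO 1 h (log2 change -0.61, adjusted p = 1.4e-07). MYC was lower (log2 change -0.36, adjusted p = 0.00574), but not without DMSO 1 h replicate 3 (-0.29, adjusted p = 0.0539). Of 21 measured cytosolic ribosomal proteins none was called by limma and 1 passed an unadjusted p under 0.05, with a median of 0.01. With the mean of probe sets 3 of them were called higher.

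Proteasome subunits were lower by limma in 13 of 25 cases and higher in none (median -0.26), beside 8.49% and 9.93% of all genes. In the brightest bin of genes those shares were 22.4% and 17.5%. At an unadjusted p under 0.05 proteasome subunits were lower in 17 and higher in 0, beside 5509 of all 19775 genes in either direction. PSMD3, a subunit of the regulatory particle, averaged 452 ± 18.4 in DMSO 24 h and 819.5 ± 63.1 in DMSO 1 h (log2 change -0.81, adjusted p = 7.46e-08), and the ATPase subunit PSMC4 1108 ± 68.1 in DMSO 24 h and 1549 ± 108 in DMSO 1 h (log2 change -0.47, adjusted p = 5.39e-05). NRF2 targets were lower in 11 of 26 cases and higher in 3 (median -0.20), or 1 without the _x_at and _s_at probe sets. GCLM, a subunit of the enzyme that starts glutathione synthesis, had signals of 569, 534 and 595 in the DMSO 24 h arrays, against 1308, 1399 and 1294 in the DMSO 1 h arrays, well separated (log2 change -1.19, SE 0.08, adjusted p = 4.25e-10). HMOX1, heme oxygenase, had signals of 90.1, 75.9 and 72.8 in the DMSO 24 h arrays, against 230.0, 209 and 213 in the DMSO 1 h arrays, also without overlap (log2 change -1.16, SE 0.10, adjusted p = 6.17e-09). SRXN1, sulfiredoxin, averaged 339.8 ± 7.4 in DMSO 24 h and 645 ± 15.2 in DMSO 1 h (log2 change -0.87, adjusted p = 8.77e-09). AKR1C1, an aldo-keto reductase with close relatives that arrays may not separate, was higher (log2 change 0.75, adjusted p = 1.41e-05) and lost its call without the _x_at and _s_at probe sets (0.08).

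Of 25 measured p53 targets 7 were lower and 2 higher (median -0.05), beside 8.49% and 9.93% of all genes. In the brightest bin of genes those shares were 22.4% and 17.5%. Without the _x_at and _s_at probe sets 3 were lower. GADD45A, a DNA damage-inducible stress sensor, averaged 450.1 ± 40.0 in DMSO 24 h and 919 ± 41.6 in DMSO 1 h (log2 change -0.98, adjusted p = 1.14e-07), and PMAIP1, a pro-apoptotic BH3 protein, 574 ± 25.3 in DMSO 24 h and 976 ± 17.0 in DMSO 1 h (log2 change -0.73, adjusted p = 3.03e-08). Of 12 measured metallothionein and zinc transport genes 3 were lower, or 1 without the _x_at and _s_at probe sets, and 1 was higher, against 8.49% and 9.93% of all genes. SLC30A1, a zinc exporter, averaged 309.9 ± 9.8 in DMSO 24 h and 664 ± 60.9 in DMSO 1 h (log2 change -1.02, adjusted p = 1.58e-06). MT2A, a metallothionein, was not called (log2 change -0.13, adjusted p = 0.413).

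Lipid, lysosome and interferon genes were called mainly higher. Of 25 measured cholesterol and fatty acid genes 7 were higher and none lower by limma (median 0.17), beside 9.93% and 8.49% of all genes. At an unadjusted p under 0.05, 11 were higher and 0 lower, beside 5509 of all 19775 genes in either direction. INSIG1, which retains SREBP in the endoplasmic reticulum, averaged 720.0 ± 25.5 in DMSO 24 h and 286 ± 10.2 in DMSO 1 h (log2 change 1.24, adjusted p = 7.55e-10), and SCD, stearoyl-CoA desaturase, 1964 ± 39.2 in DMSO 24 h and 882 ± 24.4 in DMSO 1 h (log2 change 1.13, adjusted p = 9.32e-10). HMGCS1, of the same pathway, gave a log2 change of 0.00 (adjusted p = 0.996). WIPI1, an autophagy protein, averaged 274 ± 6.6 in DMSO 24 h and 106 ± 21.1 in DMSO 1 h (log2 change 1.16, adjusted p = 2.42e-07), and 9 of 30 lysosome and autophagy genes were higher and 3 lower. ISG20, an interferon-induced exonuclease, averaged 1416 ± 30.6 in DMSO 24 h and 611 ± 22.7 in DMSO 1 h (log2 change 1.17, adjusted p = 1.93e-09), and IFI35 383 ± 10.0 in DMSO 24 h and 160.1 ± 9.5 in DMSO 1 h (log2 change 1.11, adjusted p = 1.04e-07). Of 28 interferon response genes 8 were higher and 3 lower (median 0.18). Without the _x_at and _s_at probe sets 4 cholesterol and fatty acid genes, 5 lysosome and autophagy genes and 5 interferon genes were higher.

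At an unadjusted p under 0.05 respiratory chain genes were higher in 14 of 25 cases and lower in 0. Among all 19775 genes 5509 passed that level in either direction. Called by limma, 11 respiratory chain genes were higher and none lower (median 0.18), beside 9.93% and 8.49% of all genes. In the brightest bin of genes those shares were 17.5% and 22.4%. The count of 11 depends on the scaling: 5 were higher with the signals as deposited and 2 with arrays centred on their medians. It was 7 without DMSO 24 h replicate 1 or 2 or DMSO 1 h replicate 1, and 6 without DMSO 1 h replicate 3. NDUFB5, a subunit of complex I, averaged 2064 ± 57.1 in DMSO 24 h and 1637 ± 70.6 in DMSO 1 h (log2 change 0.33, adjusted p = 8.02e-05). ND6, which the mitochondrial genome encodes and which is no member of that list, averaged 1626 ± 146 in DMSO 24 h and 4602 ± 198 in DMSO 1 h (log2 change -1.49, adjusted p = 1.9e-08). Of 20 measured glycolysis genes 5 were higher and 1 lower, and with any single array left out except DMSO 1 h replicate 1 none was lower. Without the _x_at and _s_at probe sets 2 glycolysis genes and 3 HIF targets were higher. ALDOC, an aldolase, averaged 358 ± 10.4 in DMSO 24 h and 174 ± 23.3 in DMSO 1 h (log2 change 0.92, adjusted p = 2.82e-06). HIF targets were split at 5 higher and 2 lower of 21, with 1 lower without DMSO 24 h replicate 2 or DMSO 1 h replicate 3. ADM, adrenomedullin, averaged 209 ± 14.3 in DMSO 24 h and 466 ± 26.8 in DMSO 1 h (log2 change -1.05, adjusted p = 1.39e-10), and VEGFA gave a log2 change of -0.31 (adjusted p = 0.0703).

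**Figure D3:**
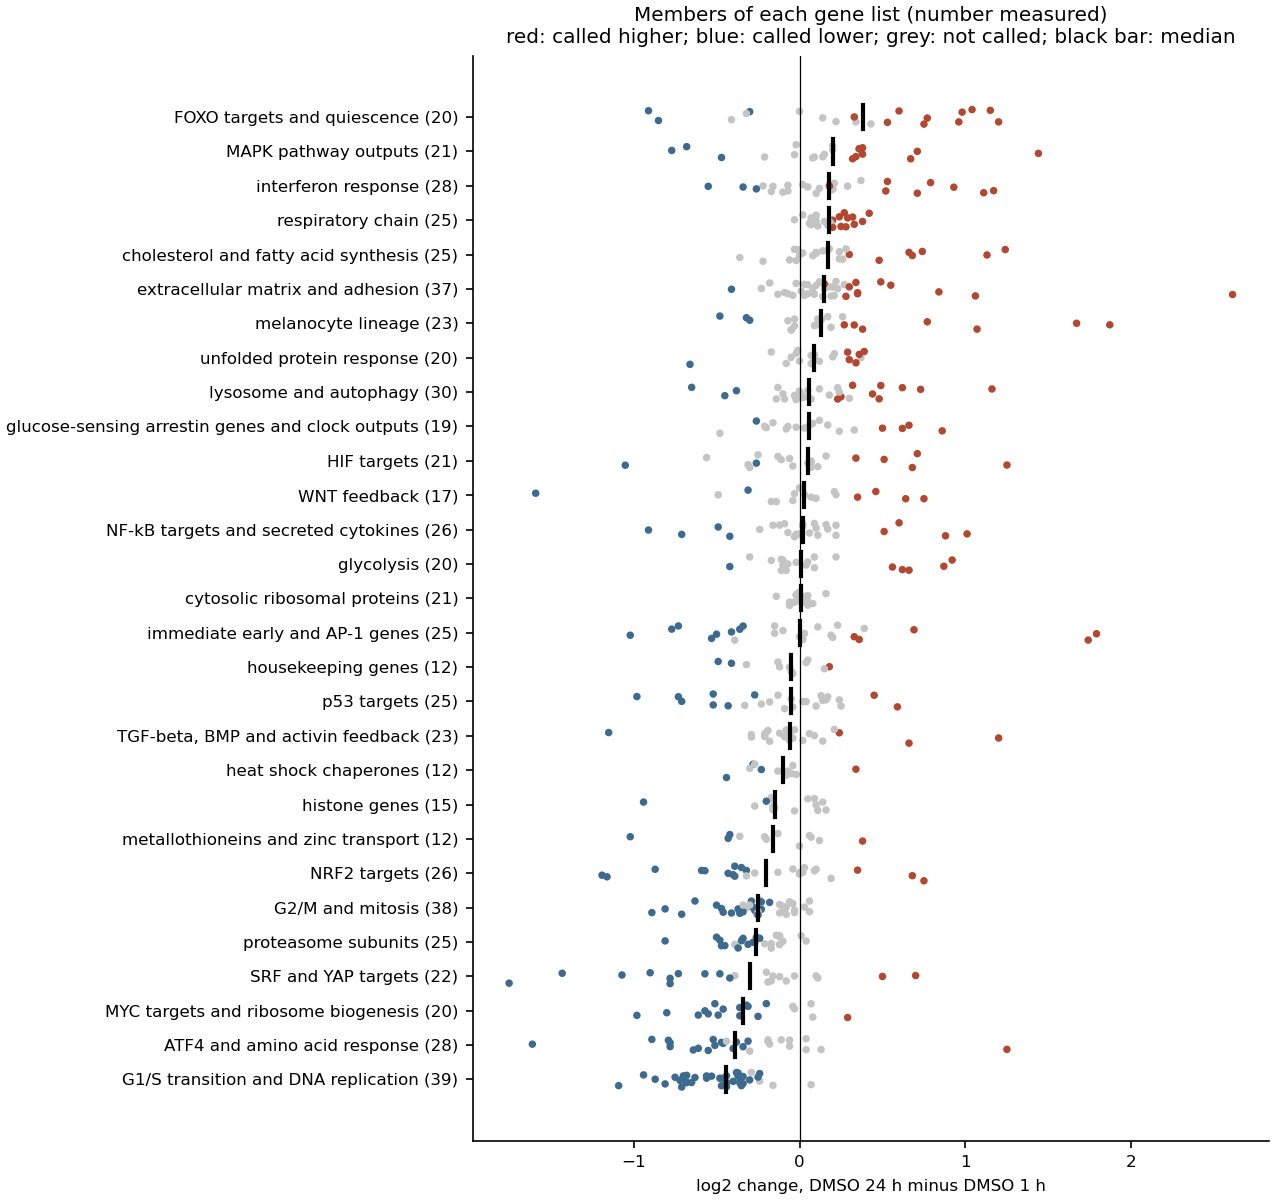
Each point is 1 measured gene of a list, placed by its log2 change, DMSO 24 h minus DMSO 1 h, and the black bar is the list's median. FOXO targets and quiescence genes have the highest median (0.38) and G1/S genes the lowest (-0.44), while the median of the ribosomal proteins is 0.01.

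Secreted cytokines did not move together, with 4 of 26 NF-kB targets and cytokines higher and 4 lower, beside 9.93% and 8.49% of all genes. Without DMSO 24 h replicate 2 the lower count was 1, and without the _x_at and _s_at probe sets the higher count was 1. CXCL8, interleukin 8, averaged 995 ± 63.1 in DMSO 24 h and 479.9 ± 43.1 in DMSO 1 h (log2 change 1.01, adjusted p = 2.32e-09), and CXCL1, a related chemokine, 435 ± 41.8 in DMSO 24 h and 733 ± 40.3 in DMSO 1 h (log2 change -0.71, adjusted p = 3.14e-08). DKK1, a secreted WNT inhibitor, had signals of 919, 910.2 and 885 in the DMSO 24 h arrays, against 2836, 2806 and 2711 in the DMSO 1 h arrays, far apart (log2 change -1.59, SE 0.05, adjusted p = 1.02e-15). PTX3, a secreted pentraxin, averaged 101 ± 11.7 in DMSO 24 h and 344 ± 31.8 in DMSO 1 h (log2 change -1.50, adjusted p = 2.65e-10). IGFBP4, another binding protein of insulin-like growth factors, averaged 186 ± 13.5 in DMSO 24 h and 492 ± 118 in DMSO 1 h (log2 change -1.24, adjusted p = 9.01e-07), opposite in direction to IGFBP5. Of the remaining leading decreases, GAL and SIK1 have a second probe set at 0.01 and 0.08, so their probe sets disagree.

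Other leading genes stand in none of the lists. SLC16A4, a member of the monocarboxylate transporter family, averaged 329 ± 40.1 in DMSO 24 h and 77.0 ± 7.9 in DMSO 1 h (log2 change 1.72, adjusted p = 3.85e-08), and PDE3A, a cyclic nucleotide phosphodiesterase, 314 ± 25.1 in DMSO 24 h and 77.5 ± 36.0 in DMSO 1 h (log2 change 1.70, adjusted p = 2.16e-07). LYPD1, a membrane protein of the Ly6 family, averaged 142 ± 15.2 in DMSO 24 h and 354 ± 61.8 in DMSO 1 h (log2 change -1.14, adjusted p = 9.21e-08). RUNX1-IT1, an RNA from an intron of RUNX1, averaged 132 ± 14.8 in DMSO 24 h and 342 ± 41.9 in DMSO 1 h (log2 change -1.19, adjusted p = 5.32e-08). GAL, the neuropeptide galanin, averaged 53.3 ± 13.7 in DMSO 24 h and 168 ± 18.6 in DMSO 1 h (log2 change -1.24, adjusted p = 1.07e-08). HRCT1 was dim, with signals of 7.8, 7.2 and 47.9 in the DMSO 24 h arrays, against 85.0, 77.8 and 93.7 in the DMSO 1 h arrays (log2 change -1.23, adjusted p = 0.000364).

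Chaperone, clock and housekeeping lists had calls in both directions, beside 18.4% of all genes called in either. In the unfolded protein response list 5 of 20 genes were higher and 1 lower, with 2 to 4 higher when 1 array was left out (2 without DMSO 24 h replicate 3 or DMSO 1 h replicate 2). Among heat shock chaperones 1 of 12 was higher and 3 were lower, and HSPH1 averaged 3311 ± 87.4 in DMSO 24 h and 4504 ± 376 in DMSO 1 h (log2 change -0.44, adjusted p = 4.12e-06). Of 19 arrestin and clock genes 4 were higher and 1 lower (2 without DMSO 24 h replicate 2 and 0 without any other single array). Without the _x_at and _s_at probe sets 2 of them and 1 unfolded protein response gene were higher. TXNIP, a thioredoxin inhibitor whose transcript follows glucose, averaged 333 ± 16.6 in DMSO 24 h and 205 ± 18.5 in DMSO 1 h (log2 change 0.62, adjusted p = 3.24e-05). Among housekeeping genes 1 of 12 was higher and 2 were lower, including the transferrin receptor TFRC (log2 change -0.49, adjusted p = 6.43e-07). With 1 array left out 0 or 1 housekeeping gene was higher and 1 or 2 were lower, and 0 or 1 heat shock chaperone was higher.

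At the earlier vehicle times few genes were called. Against DMSO 1 h, 45 genes were called at 2 h (0.228%), 67 at 4 h (0.339%) and 250 at 8 h (1.26%), and 2425 differed between 24 h and 8 h (12.3%). The comparisons of 2, 4, 8 and 24 h share the 1 h arrays, and that of 24 h with 8 h shares the 24 h arrays. CCN2 averaged 1233 at 1 h, 1108 at 2 h, 825 at 4 h, 772 at 8 h and 345 at 24 h. LOXL4 averaged 656 at 1 h, 1089 at 2 h, 899 at 4 h, 1146 at 8 h and 4166 at 24 h, and SERPINA3 1165 at 1 h, 1757 at 2 h, 1337 at 4 h, 1598 at 8 h and 5503 at 24 h. EGR1 was higher at 4 h (log2 change 0.82, adjusted p = 0.0091) and at 8 h (log2 change 1.31, adjusted p = 2.79e-05). DDIT4 was higher from 2 h on (log2 change 1.39, adjusted p = 2.6e-09, at 2 h), with means of 888 at 1 h, 2368 at 2 h, 2425 at 4 h, 2263 at 8 h and 2136 at 24 h.

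FOS, an immediate early AP-1 subunit, averaged 313 at 1 h, 151 at 2 h, 518 at 4 h, 821 at 8 h and 424 at 24 h, highest at 8 h (log2 change 1.31, adjusted p = 0.000826, against 1 h), and at 24 h it was not called against 1 h (log2 change 0.39, adjusted p = 0.211). For G1/S genes the median change from 1 h was -0.04 at 2 h, -0.09 at 4 h, -0.18 at 8 h and -0.44 at 24 h, and 8 of 39 were called lower at 8 h, against 0.779% of all genes. For amino acid response genes the median was -0.07 at 8 h and -0.39 at 24 h. For FOXO and quiescence genes it was 0.03 at 8 h and 0.38 at 24 h. For mitotic genes it was 0.08 at 8 h and -0.25 at 24 h.

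**Figure D4:**
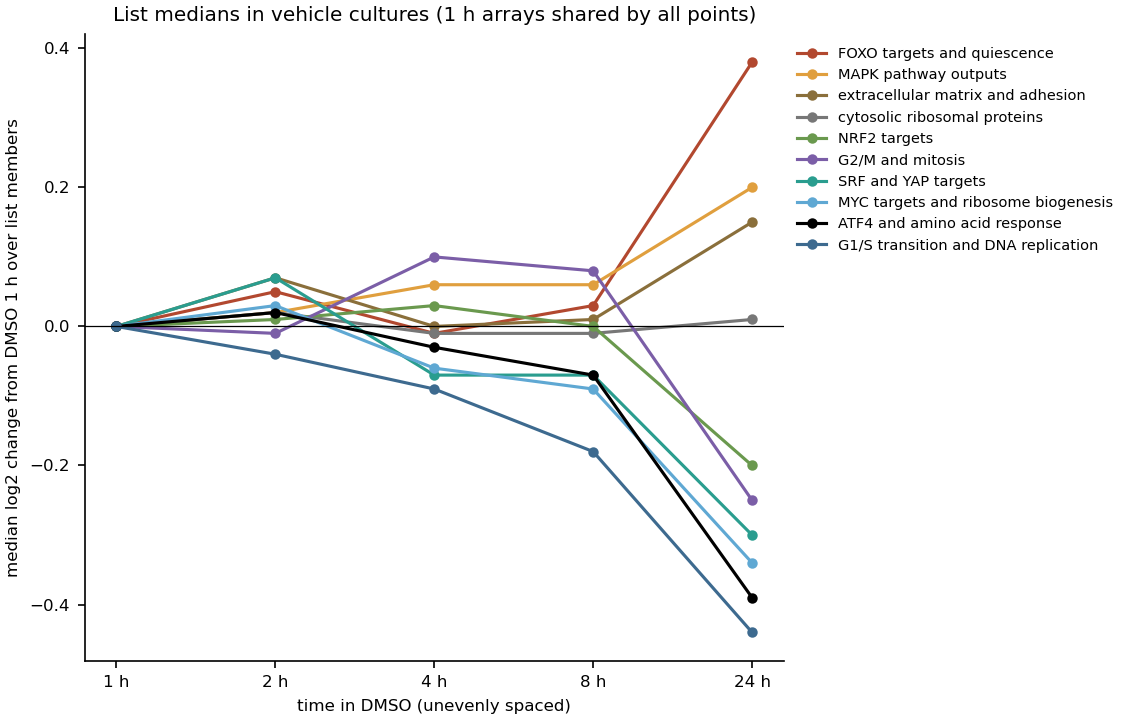
Median log2 change from DMSO 1 h over the members of 10 gene lists at 2, 4, 8 and 24 h in vehicle; all points share the 1 h arrays. Medians stay near 0 up to 8 h, where G1/S genes are at -0.18, and spread at 24 h to between -0.44 and 0.38.

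The MLN4924 arrays at 24 and 1 h share no array with the vehicle ones, so the change from 1 to 24 h could be compared between vehicle and drug. In MLN4924 5893 genes were called between 24 and 1 h (29.8%), 2827 higher (14.3%) and 3066 lower (15.5%). The difference between the changes, vehicle minus drug, was itself called for 5141 genes (26%), 2752 above 0 (13.9%) and 2389 below (12.1%). Of the 1963 genes higher in DMSO, 453 (23.1%) were also higher in MLN4924, which is 16% of those higher there, and 658 (33.5%) were lower. Of the 1679 lower in DMSO, 528 (31.4%) were also lower in MLN4924, which is 17.2% of those lower there, and 473 (28.2%) were higher.

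Some leading secreted and neural crest genes moved apart. SERPINA3, TFAP2B and IGFBP5 were picked as being among the largest differences. Other leading secreted genes fell in both: GAL by -1.24 in DMSO and -1.07 in MLN4924, and PTX3 by -1.50 and -0.64. The limma difference was not called for GAL (adjusted p = 0.5) and was -0.86 for PTX3 (adjusted p = 4.07e-05). SERPINA3 changed by 2.21 in DMSO and -2.30 in MLN4924, a difference of 4.51 (SE 0.14, adjusted p = 2.06e-17). TFAP2B changed by 1.67 and -2.83 in DMSO and MLN4924, and IGFBP5 by 2.03 and -2.39. In the other direction, ATF3 changed by -1.02 in DMSO and 4.01 in MLN4924, GADD45A by -0.98 and 2.77, and CCN2 by -1.75 and 1.07. EGR1 rose in both (1.74 in DMSO and 2.25 in MLN4924), and the difference was not called (adjusted p = 0.0845). GDF15, a stress-induced secreted factor chosen after its values were seen, changed by 0.25 in DMSO, where it was not called, and by 6.66 in MLN4924.

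By list, the difference was called below 0 for 21 of 28 amino acid response genes, 16 of 26 NRF2 targets, 16 of 20 ribosome biogenesis genes, 14 of 22 SRF and YAP targets and 22 of 25 p53 targets, beside 12.1% of all genes. It was called above 0 for 35 of 38 G2/M genes, of which all 38 were called lower in MLN4924, and for 20 of 37 matrix and adhesion genes, beside 13.9% of all genes. For G1/S genes it was called above 0 for 3 and below 0 for 12 of 39 (median -0.12), and 22 of 39 were called lower in MLN4924. Over all genes 15.5% were called lower in MLN4924.

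**Figure D5:**
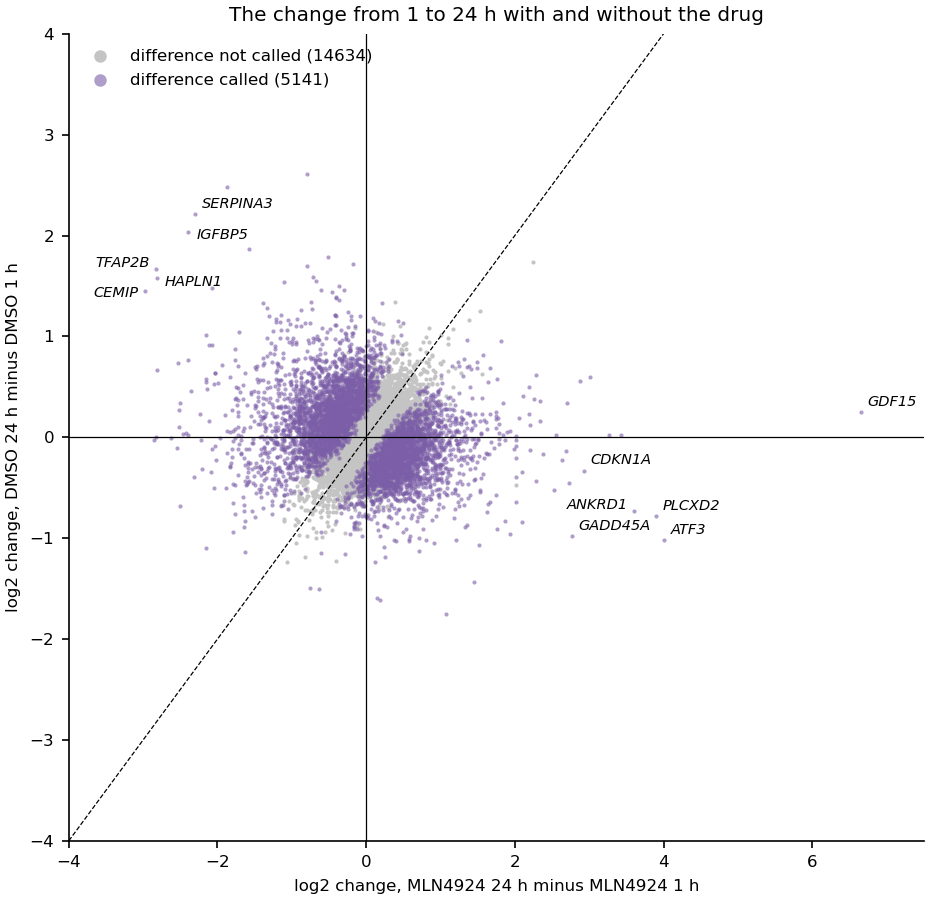
Each point is 1 of 19775 genes, with its log2 change from 1 to 24 h in DMSO on the vertical axis and in MLN4924 on the horizontal axis; the dashed line marks equal changes. Purple points are the 5141 genes whose changes differed, with SERPINA3 at the upper left and ATF3 at the lower right.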

How the data were processed

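Labelled cRNA from A375 cells was measured on 30 arrays. Sample titles gave the group, the time and the replicate number. The deposited table gives the intensity of 54675 probe sets as a linear signal, and per the submitters' processing notes the authors used Affymetrix Expression Console. Which version and which algorithm they ran is not given in the sources used here. All arrays share a 2% trimmed mean of 150.02. Of the probe sets 41097 had 1 gene symbol, 1801 several and 11777 none. Symbols are those of the platform annotation, updated by gene ID with RefSeq (GRCh38.p14).

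Signals were quantile-normalized and taken as log2(signal + 32). The brightest probe set with a single symbol stood for each gene, giving 19775 genes. limma 3.58.1 in R 4.3.3 fitted 1 mean per group over all 30 arrays with eBayes, so the spread is shared by all groups. The 3 arrays a group limit the precision. In simulated data with these groups, 39 of 56 genes changed by 0.5 were called (69.6%). So were 75 of 75 changed by 1 and 69 of 69 changed by 2, and 8 of 191 calls were false. Only genes brighter than the median were changed, and the noise was normal and independent between genes and arrays. These rates therefore do not carry over to dim genes or to noise that genes share.

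The members, the 33 gene lists and the tests were chosen with earlier results of these data known. Of 778 list memberships 704 were measured, and the others were not analysed here. Genes named are the 15 largest increases and decreases among called genes with non-overlapping arrays and a higher group mean above the median of all values, up to 4 called members per list, the 5 largest differences from MLN4924 per direction under the same rule, and a set chosen in any case. PMEL, MLANA, TYR and GDF15 were added after their values were seen. Same-numbered replicates deviated from their group means with correlations of -0.004, 0.052 and 0.049, so replicate numbers were not taken as pairs. Alternatives changed the scaling, the number added, the probe set, the dim-gene filter, the arrays fitted, the prior, the replicate block, an ACTB ratio covariate and 1 array at a time.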

Additional observations from a re-analysis of the deposited data

Results flagged for a closer look

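The change from 1 to 24 h differed between vehicle and MLN4924 by the test of the difference itself for 5141 genes. On the log2 scale, DMSO change minus MLN4924 change, SERPINA3 stood at 4.51, TFAP2B at 4.50, CEMIP at 4.44, IGFBP5 at 4.41 and HAPLN1 at 4.40. CEMIP gave 0.01 without the _x_at and _s_at probe sets and was then not called. In the other direction ATF3 stood at -5.03, PLCXD2 at -4.68, ANKRD1 at -4.33, GADD45A at -3.75 and CDKN1A at -3.26. Of these, CDKN1A was not called within vehicle (adjusted p = 0.0944). GDF15 lay beyond them at -6.41, but its DMSO means were 62.6 at 24 h and 48.0 at 1 h, below the median of all values.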

How the results depend on the processing

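The count of genes called between DMSO 24 h and 1 h ranged from 2631 of 17100 tested without the _x_at and _s_at probe sets to 3854 of 12214 tested without dim genes. Both fits tested fewer genes than the main fit, so these counts cannot be compared directly with its count or with each other. With 1 array left out the count ranged from 2826 to 3371. Fitting only the 6 compared arrays gave 2741 called genes, 2505 of them shared with the main fit (68.8% of its calls). Of 143 named called genes 103 kept direction and call under each of the 18 alternatives that measured them. Genes with only _x_at or _s_at probe sets, such as SLC7A5, were not in the fit without those. List counts in that fit can therefore fall through lost calls and through members no longer measured. Of the named called genes 7 turned in that fit: SIK1 (0.08), GINS2 (0.13), IL1A (-0.04), TGIF1 (-0.18), MT1G (0.17), LUM (-0.02) and B2M (-0.22). With 1 added before log2, 9 changes moved by over 1.5 times, and with the mean of probe sets 45. The replicate block gave 3561 called genes, 3498 of them shared.

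The early counts were small and unstable. For DMSO 2 h, 45 genes became 29 with signals as deposited, 25 with centring, 26 with 16 added, 22 with 1 added, 28 with the mean of probe sets, 17 without _x_at and _s_at probe sets, 14 with the 15 DMSO arrays and 16 with the ACTB covariate; leaving out an array gave 18 to 31. For DMSO 4 h, 67 became 35 with the mean of probe sets, 38 without _x_at and _s_at probe sets and 32 with 15 arrays, and 33 to 60 with an array left out. For DMSO 8 h, 250 became 98 with 15 arrays and 100 to 237 with an array left out. These causes were not tested. The ACTB ratio difference (0.004) ran from -0.025 to 0.028 with an array left out, and the median signal difference from -0.967 (without DMSO 24 h replicate 2) to 1.833. The fits of 15 or 6 arrays gave no MLN4924 results. Signals near background limit what dim genes can show.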

Other observations

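Gene families outside the lists were read by symbol after the values were seen, leaving out pseudogenes, antisense and divergent transcripts, and they are given as limma calls without a test of the family. Over all genes 9.93% were called higher and 8.49% lower in vehicle, and 14.3% and 15.5% in MLN4924. These shares are not matched for signal. In the brightest bin of genes 17.5% were called higher and 22.4% lower in vehicle. Of 8 measured Bardet-Biedl syndrome genes (BBS), which serve transport to the primary cilium, 6 were called higher at 24 h in vehicle and none lower (median 0.46), while in MLN4924 3 were higher and 1 lower. Of 18 intraflagellar transport genes (IFT) 7 were higher and none lower (median 0.16) in vehicle, against 2 higher and 4 lower in MLN4924. Of 15 protocadherin beta genes 6 were higher and none lower (median 0.40) in vehicle, and in MLN4924 1 was higher and 8 lower. In each of these 3 families 0 were lower in vehicle at an unadjusted p under 0.05. These protocadherins are related genes that arrays may not separate, so single members are uncertain.

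Nuclear pore and RNA-processing families had more genes called lower than higher in vehicle. Of 23 nucleoporin and nucleoporin-like genes (NUP) 11 were lower and none higher, with 15 lower and 1 higher at an unadjusted p under 0.05. Among all 19775 genes 5509 passed that level in either direction. Of 19 HNRNP genes 8 were lower and 1 higher. Of 10 SRSF splicing factors 5 were lower and none higher, with 6 lower and 0 higher at an unadjusted p under 0.05. Of 48 mitochondrial ribosomal protein genes (MRPL) 13 were lower and 2 higher in vehicle, against 6 lower and 15 higher in MLN4924. Of 425 zinc finger genes (ZNF) 27 were higher and 39 lower in vehicle, shares below and near those of all genes, against 175 higher and 34 lower in MLN4924.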
